A study of Mus musculus with 22 samples.

Results

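Adipose tissue surrounds the thymus of the mouse, and RNA from a dissected thymus can carry RNA of fat cells. The genes of adipocytes followed here were Adipoq, Plin1, Cidec, Fabp4, Cfd, Retn, Lep, Ucp1 and Cidea, which are 9 of the 34585 rows of each count table. They are defined by name, with no threshold on a measured value, and their rows were read in 8 thymus, 8 cerebrum and 6 cerebellum libraries. The mice were C57BL/6 and carried either no transgene (WT littermates) or Tol, a chimeric reading frame of scrambled reporter proteins that was placed beside the Col1a1 gene behind the ubiquitous CAG promoter by cassette exchange in embryonic stem cells. There were 4 Tol and 4 WT libraries of thymus, 4 Tol and 4 WT of cerebrum, and 2 Tol and 4 WT of cerebellum. All were made from poly(A) RNA of frozen tissue and held between 14543698 and 34776973 counts. No treatment is named. The study used young adult mice, and the labels give neither age nor sex for a library. The study describes its organ data as coming from as many mice of each genotype as there are thymus libraries, and the labels do not say which animal stands behind a library.

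White adipocytes store triglyceride in a single large droplet and secrete hormones, whereas brown adipocytes burn fat in their mitochondria to make heat. Adipoq (adiponectin), Lep (leptin), Retn (resistin) and Cfd (adipsin) encode secreted proteins. Plin1 and Cidec encode proteins of the lipid droplet surface, and Fabp4 encodes a fatty acid carrier of adipocytes that endothelial cells and macrophages also make. Ucp1, the uncoupling protein of the inner mitochondrial membrane, defines brown fat, and Cidea, a droplet protein, is high in brown fat. Lep and Retn were taken as white members, Ucp1 and Cidea as brown members, and the other 5 as shared by both kinds of fat.

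The labels were checked against marker transcripts. The Tol transcript was at 448 to 1023 counts in the Tol thymus libraries and at most 1 in the WT ones, and in the brain it was at 2240 counts or more in every Tol library and at most 2 in every WT library. The thymocyte gene Rag1, which cuts antigen receptor genes, was at 3107 to 5784 CPM (counts per 1000000 of the library total, scaled with edgeR's TMM factors) in thymus and at most 3.85 CPM in the brain libraries. Cerebellum Tol 2 stood apart: Gabra6, a receptor subunit of cerebellar granule cells, was at 12.7 CPM there against 321 CPM or more in the other 5 cerebellum libraries, and the Purkinje cell gene Pcp2 was at 10.5 CPM against at least 111 CPM. Calb1, Cbln1 and Car8, also on the cerebellum list, were lowest there too. Barhl1, of the same list, went the other way and was highest there, at 24.65 CPM against 10.47 to 20.42 CPM in the others. Cerebellum results are therefore given with and without Cerebellum Tol 2. In the cerebrum, Drd1, a dopamine receptor of the striatum, ranged from 7.82 to 121 CPM between libraries.

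Sequences just before the start of 5 of these genes are shown because their RNA behaved differently, with Adipoq, Plin1 and Cfd moving together over the thymus libraries and Ucp1 and Lep each high in a library of its own. RefSeq promoters (assembly GRCm38.p6, 250 bases before to 50 bases after the start, 5′ to 3′ on the gene's strand) were found for 7 of the 9 genes. Capitals mark the TATA box letters TATAAA, the CCAAT box, the C/EBP factor core TTNNGCAA or the nuclear receptor core AGGTCA, searched on both strands. Adipoq lay at chr16:23146286-23146585 (plus strand), Plin1 at chr7:79732727-79733026 (minus strand), Cfd at chr10:79890603-79890902 (plus), Ucp1 at chr8:83290098-83290397 (plus) and Lep at chr6:29059971-29060270 (plus).
Adipoq: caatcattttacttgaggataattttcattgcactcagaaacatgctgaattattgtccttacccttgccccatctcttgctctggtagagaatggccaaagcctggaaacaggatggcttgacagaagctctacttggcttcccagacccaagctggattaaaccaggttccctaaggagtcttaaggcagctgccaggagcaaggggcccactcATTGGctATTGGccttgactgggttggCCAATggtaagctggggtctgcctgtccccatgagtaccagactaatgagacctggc
Plin1: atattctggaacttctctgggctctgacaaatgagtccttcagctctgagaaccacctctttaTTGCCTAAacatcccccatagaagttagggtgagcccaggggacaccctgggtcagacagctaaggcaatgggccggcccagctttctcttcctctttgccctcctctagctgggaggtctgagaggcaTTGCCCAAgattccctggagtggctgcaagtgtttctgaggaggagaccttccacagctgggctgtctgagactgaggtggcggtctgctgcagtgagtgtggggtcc
Cfd: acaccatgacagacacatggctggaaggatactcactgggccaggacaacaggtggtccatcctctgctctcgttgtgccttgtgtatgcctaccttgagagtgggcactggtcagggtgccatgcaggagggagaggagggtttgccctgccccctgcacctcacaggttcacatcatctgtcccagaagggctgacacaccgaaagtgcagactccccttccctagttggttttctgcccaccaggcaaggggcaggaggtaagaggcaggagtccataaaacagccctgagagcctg
Ucp1: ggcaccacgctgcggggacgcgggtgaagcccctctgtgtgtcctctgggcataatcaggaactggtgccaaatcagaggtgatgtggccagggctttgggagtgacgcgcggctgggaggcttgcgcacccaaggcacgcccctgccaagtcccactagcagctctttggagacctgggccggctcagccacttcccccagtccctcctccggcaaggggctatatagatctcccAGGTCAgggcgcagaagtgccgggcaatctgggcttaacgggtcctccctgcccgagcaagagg
Lep: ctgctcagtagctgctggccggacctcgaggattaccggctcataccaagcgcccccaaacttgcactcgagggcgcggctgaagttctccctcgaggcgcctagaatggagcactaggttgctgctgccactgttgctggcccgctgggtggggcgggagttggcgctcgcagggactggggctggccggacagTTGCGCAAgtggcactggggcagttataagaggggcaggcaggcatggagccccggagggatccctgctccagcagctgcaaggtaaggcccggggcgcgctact
The Adipoq window held CCAAT or its complement ATTGG at 3 places, at -34, -27 and -7 from the start, and was the only 1 of the 7 genes with that motif, which 37.4% of all 32851 promoters held. Plin1 held TTNNGCAA on the opposite strand at -187 and -58, and Lep held the palindrome TTGCGCAA at -55. TTNNGCAA was found in 3 of the 7 genes (the other was Cidec) and in 10.8% of all promoters. AGGTCA stood at -14 of Ucp1 and in 16.3% of all promoters, and TATAAA, found in 13.6% of all promoters, was in none of the 7. No motif searched lay in the windows of Cfd or Retn. These are matches of letters, not measured sites.

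The fat genes differed far more between thymi than most genes did. Adipoq was at 14, 72, 257 and 201 counts in Tol 1 to 4 and at 382, 60, 183 and 180 counts in WT 1 to 4. In CPM these were 0.409, 3.96, 12.4 and 9.99 in Tol and 21.3, 3.41, 11.3 and 6.26 in WT. Tol 1 was lowest and WT 1 highest, 52.1-fold apart (6.25-fold from lowest to highest without Tol 1), and the other 6 libraries of both genotypes lay interleaved between them. Tol 1 was also the deepest thymus library, with 34776973 counts. Why Adipoq was low there was not tested.

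The genes of both droplet proteins followed much the same order. Plin1 was at 0.234, 2.81, 7.30 and 5.77 CPM in Tol 1 to 4 and at 12.2, 2.16, 6.87 and 4.07 CPM in WT 1 to 4. Cidec was at 0.438, 2.86, 8.71 and 5.37 CPM in the Tol thymi, against 14.3, 3.30, 7.18 and 5.04 CPM in the WT thymi. Both were lowest in Tol 1 and highest in WT 1, and the genotypes overlapped.

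Cfd, a serine protease of the alternative complement pathway, spanned the widest range of the 7 members tested over all 8 thymi. It was at 0.351, 23.3, 51.9 and 33.9 CPM in the Tol thymi, against 82.5, 14.2, 41.6 and 23.8 CPM in the WT thymi, 235-fold from the lowest to the highest library. That range rested on the 12 counts of Tol 1. Without it Cfd spanned 5.83-fold, less than Adipoq (6.25-fold) and Cidea (6.08-fold). Retn, the resistin gene, was at 0.146, 2.26, 4.55 and 4.48 CPM in the Tol thymi, against 7.70, 1.42, 5.94 and 2.43 CPM in the WT thymi. Again Tol 1 was lowest and WT 1 highest.

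Fabp4 behaved differently. It was at 23.5, 46.3, 71.1 and 56.7 CPM in the Tol thymi, against 65.9, 31.9, 48.9 and 34.8 CPM in the WT thymi, only 3.03-fold from the lowest to the highest. In Tol 1, where the other shared genes were at most 0.438 CPM, Fabp4 still held 803 counts and made up 92.4% of the summed CPM of the 9 genes, against 32.2% in WT 1. The 6 endothelial markers summed to between 183 and 193 CPM in all 8 thymus libraries, and the 5 macrophage markers to between 401 and 607 CPM with the lowest sum in Tol 1. Their part in the Fabp4 level was not tested.

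**Figure D1:**
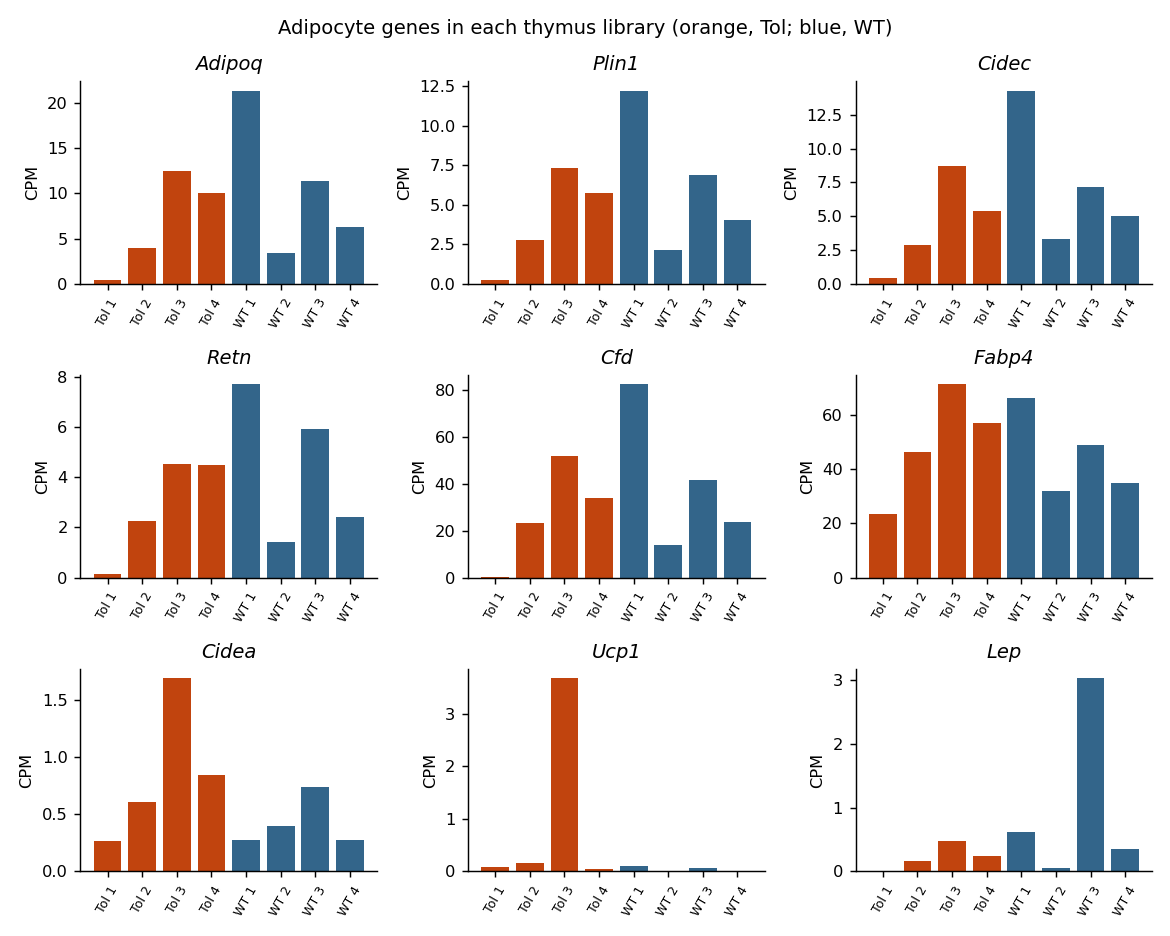
CPM of the 9 adipocyte genes (1 panel each, linear scale from 0) in the 4 Tol (orange) and 4 WT (blue) thymus libraries, 1 bar per library. Adipoq, Plin1, Cidec, Retn and Cfd are lowest in Tol 1 and highest in WT 1, Ucp1 is high in Tol 3 alone and Lep in WT 3 alone.

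Spread was measured as the standard deviation of log2(CPM + 1) within a genotype. Its median was 0.133 over the 16248 genes tested in thymus. It was 1.86 for Cfd, 1.26 for Adipoq, 1.07 for Plin1, 1.003 for Cidec, 0.97 for Retn, 0.58 for Fabp4 and 0.36 for Cidea. Each of these 7 exceeded the value of at least 96.4% of the genes tested. Tol 1 carried much of this spread. Without it, a reading chosen after seeing the data, the values were 0.89 for Cfd, 0.92 for Adipoq, 0.78 for Plin1, 0.73 for Cidec, 0.72 for Retn, 0.41 for Fabp4 and 0.29 for Cidea, against a median of 0.119 over all genes tested, and each of the 7 exceeded at least 94.5% of these genes. Without Tol 3 the value of Cidea exceeded 87.6% of them. Ucp1 and Lep were too low for the filter on low counts. Tol 1 was the lowest library for 8 of the 9 members, all but Ucp1, and for 10.9% of all genes tested.

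Per length of transcript, the mean level over the 8 thymus libraries was 52.9 ± 18.7 CPM per kb for Fabp4 and 36.8 ± 27.4 for Cfd (SD, n = 8). It was 6.69 ± 5.12 for Adipoq, 3.43 ± 2.47 for Cidec, 3.17 ± 2.20 for Retn and 1.84 ± 1.33 for Plin1. Cidea was at 0.572 ± 0.432, Ucp1 at 0.317 ± 0.781 and Lep at 0.190 ± 0.306 CPM per kb. Only the step from Cfd to Adipoq exceeded the larger SD of its neighbours, and the order of every other adjacent pair lay within that spread. With the union of all exons as the length, a reading chosen after seeing the data, Fabp4 was at 10.6 CPM per kb, below Cfd.

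Plin1 and Retn kept the steadiest proportions to Adipoq among the shared and white members. The ratio of Plin1 to Adipoq stayed between 0.571 and 0.708 over the 8 libraries, and that of Retn to Adipoq between 0.357 and 0.569. That of Cidec to Adipoq ran from 0.537 to 1.07, and to 0.967 without Tol 1. The ratio of Cfd to Adipoq lay between 3.39 and 5.88 in 7 libraries and was 0.857 in Tol 1, which held 12 Cfd counts. Over the 8 libraries, on log2(CPM + 1), Pearson's r with Adipoq was 0.999 for Plin1, 0.988 for Cidec, 0.986 for Retn, 0.962 for Cfd and 0.903 for Fabp4. By exact permutation over pairings, with Benjamini-Hochberg adjustment over the 8 relations computed, the adjusted p was 9.92e-05 for Plin1 and Cfd, 0.000132 for Cidec, 0.000149 for Retn and 0.00321 for Fabp4. The unadjusted exact p of Plin1 and of Cfd was 2.48e-05, the smallest these permutations can give. Spearman's rho was 1 for Plin1 and Cfd, 0.976 for Cidec and Retn and 0.929 for Fabp4, with exact adjusted p of 0.000198, 0.000794 and 0.00357. Without Tol 1 and WT 1, the libraries farthest from the Adipoq median, r was 0.996 for Plin1, 0.948 for Cidec, 0.949 for Retn, 0.945 for Cfd and 0.780 for Fabp4. Without Tol 1 alone, the adjusted p of Fabp4 was 0.0502 by the same exact permutation test. The libraries share depth scaling and tissue, and the labels give no batch.

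Lep, Cidea and Ucp1 did not pass that test. For Lep r was 0.549 (exact permutation, adjusted p = 0.221) but rho was 0.905 (adjusted p = 0.00609), and without WT 3 its r was 0.921 (adjusted p = 0.00476). For Cidea r was 0.402 (exact permutation, adjusted p = 0.359) and rho 0.5 (adjusted p = 0.247). For Ucp1 r was 0.280 (exact permutation, adjusted p = 0.359) and rho 0.383 (adjusted p = 0.345). Without the same pair of libraries r was 0.596 for Lep, 0.713 for Cidea and 0.505 for Ucp1.

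**Figure D2:**
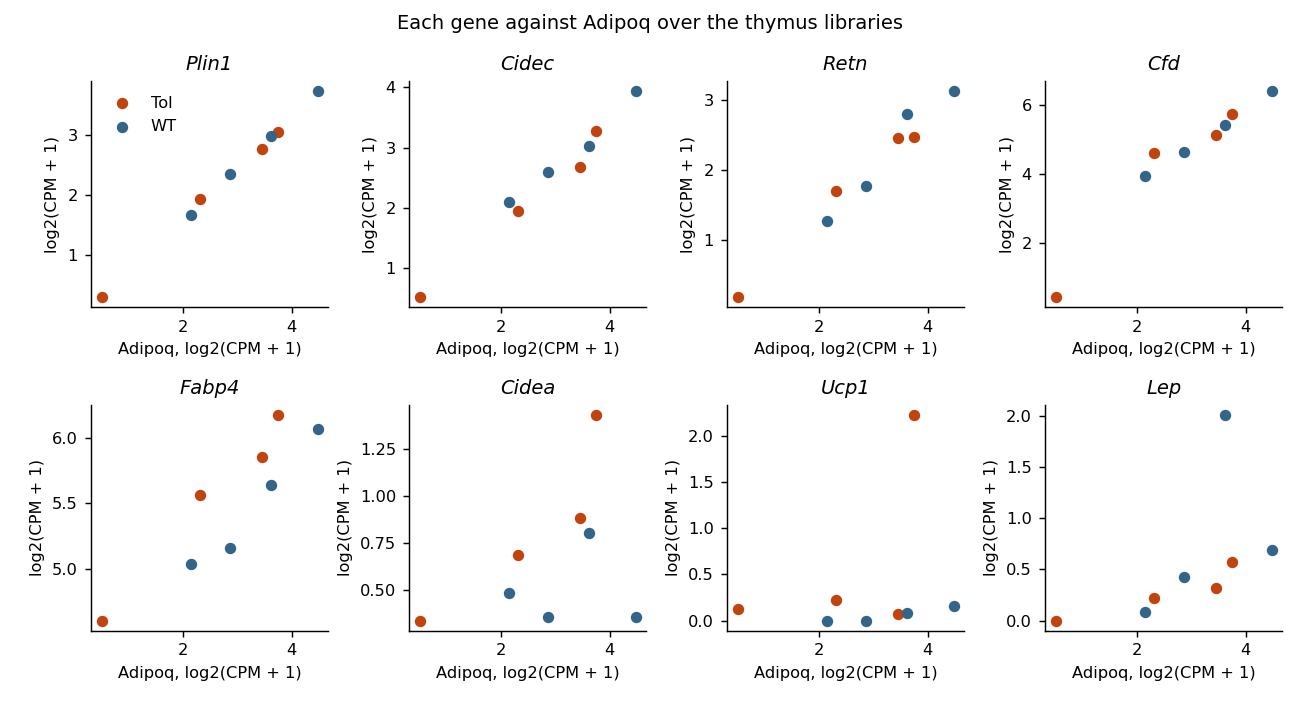
log2(CPM + 1) of each other member (y axis, own scale) against that of Adipoq (x axis) in the 8 thymus libraries, Tol in orange and WT in blue. Plin1, Cidec, Retn and Cfd lie close to a line in both genotypes, whereas 1 library stands far above the rest for Ucp1 (Tol 3) and for Lep (WT 3).

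The brown fat gene Ucp1 was found almost entirely in a single thymus. It was at 3, 3, 76 and 1 counts in Tol 1 to 4 and at 2, 0, 1 and 0 counts in WT 1 to 4. The 76 counts of Tol 3 (exact 95% Poisson interval 59.9 to 95.1) were 3.68 CPM. That interval covers counting error only, as do the other exact intervals and the floors here. The edgeR intervals also take in the spread between libraries. In the other 7 libraries Ucp1 was at or under the floor of 3 counts per library, which stood at 0.0876 CPM in the deepest of them (Tol 1) and at up to 0.186 CPM (WT 3). The counts of 0 allowed 0.171 CPM in WT 2 and 0.104 CPM in WT 4.

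Cidea was at 9, 11, 35 and 17 counts in Tol 1 to 4 and at 5, 7, 12 and 8 counts in WT 1 to 4. Its level was 0.263, 0.605, 1.69 and 0.845 CPM in Tol and 0.279, 0.398, 0.742 and 0.278 CPM in WT. Tol 3 was again highest, 6.44-fold above Tol 1, yet unlike Ucp1 the gene was above 3 counts in every thymus. Cidea overlaps B430212C06Rik on the other strand, and whether the counting used strand is not given in the sources used here, so reads of the pair may be mixed.

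Other genes of a list of 18 brown fat genes were read for the same library. Of the 10 tested, 2 were highest in Tol 3, beside 7.13% of all genes tested, and 2 were lowest there. Of the 8 that did not pass the filter on low counts, 4 were highest in Tol 3 and Lhx8, at 1 count, was lowest there. The 7.13% covers tested genes only. The most abundant per length were Cox7a1 and Cox8b, both cytochrome oxidase subunits of muscle and brown fat, and Cpt1b, the carnitine palmitoyltransferase of muscle and brown fat. Cox8b was at 12, 10, 23 and 12 counts in Tol and at 9, 3, 6 and 11 counts in WT. Cpt1b was at 4.31 CPM in Tol 3 and between 3.09 and 4.08 CPM in the others. Cox7a1 was highest in Tol 4, at 1.09 CPM. The fatty acid elongase gene Elovl3 held 6 counts in Tol 3 and at most 3 elsewhere, and the proton channel gene Otop1 held 11 counts there and at most 6 elsewhere, whereas Prdm16, a transcription factor of brown fat, was lowest in Tol 3 (1.74 CPM, against 3.65 to 5.68 CPM elsewhere), as was the coactivator gene Ppargc1a (0.822 CPM, against 0.935 to 1.53 CPM elsewhere). These 4 and Lhx8 were named after their values were seen. The 11 skeletal muscle markers summed to 26.8 CPM in Tol 3 and to between 21.3 and 29.9 CPM in the others, and the 5 cardiac muscle markers to 6.72 CPM in Tol 3 and to between 3.51 and 5.57 CPM in the others. The part of muscle in the brown list was not tested.

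Leptin RNA was highest in another thymus. Lep was at 0, 3, 10 and 5 counts in Tol 1 to 4 and at 11, 1, 49 and 10 counts in WT 1 to 4. The 49 counts of WT 3 (exact Poisson interval 36.3 to 64.8) were 3.03 CPM, against at most 0.614 CPM elsewhere. The ratio of Lep to Adipoq was 0.268 in WT 3 and at most 0.0556 in the other 7, while the ratios of Plin1, Cidec, Retn and Cfd to Adipoq in WT 3 lay within the range of the other libraries. The count of 0 in Tol 1 allowed 0.0876 CPM.

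Brown and white members were set against each other as the summed CPM per kb of Ucp1 and Cidea over that of Lep and Retn. The ratio was 2.26, 0.317, 0.909 and 0.197 in Tol 1 to 4 and 0.0458, 0.282, 0.115 and 0.111 in WT 1 to 4. White members exceeded brown ones in 7 of 8 thymi, whereas with the whole brown and white lists added the brown sum was the larger in all 8. In Tol 1, the exception, the ratio rested on 3 Ucp1 and 9 Cidea counts against 5 Retn counts and no Lep. Its brown sum (0.289 CPM per kb) lay within the range of the WT thymi, and its white sum (0.128) was the lowest of the 8. In Tol 3 the sums were 3.77 CPM per kb for the brown pair, the highest of the 8, and 4.14 for the white pair. On the log2 scale the mean was -0.74 ± 1.58 in Tol and -3.14 ± 1.07 in WT (SD, n = 4 each), and the ranges overlapped (-2.35 to 1.17 against -4.45 to -1.83). The difference between these means, 2.40, was 0.702 with the whole brown and white lists added. No test was made of this ratio. Ucp1 per kb amounted to 23.4% of Adipoq in Tol 3. In the other 7 libraries, with Ucp1 at or under 3 counts, the floor allowed from 0.620% (WT 1) to 16.9% (Tol 1).

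**Figure D3:**
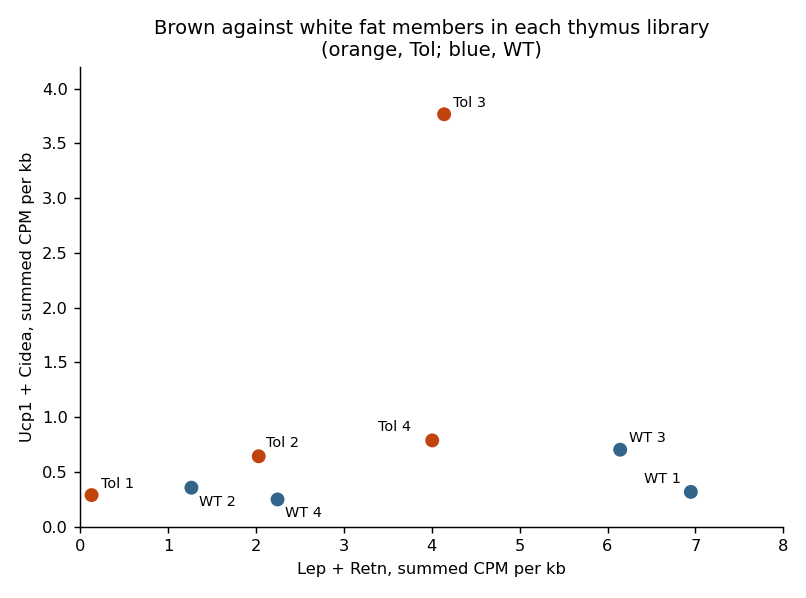
Summed CPM per kb of Ucp1 and Cidea (y axis) against that of Lep and Retn (x axis) in each of the 8 thymus libraries, 1 labelled point per library. Tol 3 stands at 3.77 on the brown axis, WT 1 and WT 3 lie farthest along the white axis, and Tol 1 is near the origin.

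Tol and WT thymi were compared to ask whether the transgene went with a change in fat RNA. None of the members passed. Of the 9 members 7 passed edgeR's filter, and 0 of them were called at an adjusted p under 0.05, against 0.0985% of the 16248 genes tested (16 genes). By edgeR 0 of the 7 were also under an unadjusted p of 0.05, as 24.4% of all genes tested were, and DESeq2 called 0 of the 6 to which it gave an adjusted p, beside 1266 of all genes (9.67% of those it gave one). Without Tol 1 edgeR called 2978 genes, without Tol 3 it called 97, without WT 4 it called 7 and without any other library none, and no member was among them in any of these fits. Cidea came close to the threshold without Tol 1 (log2 fold change 1.37, edgeR adjusted p = 0.0591). In bulk RNA, fewer cells of a type and less RNA per cell cannot be told apart.

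Adipoq had a log2 fold change (Tol over WT) of -0.68 (SE 0.72, 95% interval -2.27 to 0.90, edgeR adjusted p = 0.593) and Cfd of -0.58 (SE 0.79, interval -2.33 to 1.16, adjusted p = 0.690). Plin1, Cidec and Retn lay between -0.80 and -0.64, with adjusted p of 0.582, 0.465 and 0.609. Fabp4 was at 0.12 (SE 0.30, interval -0.55 to 0.78, adjusted p = 0.845) and Cidea at 1.003 (SE 0.55, interval -0.20 to 2.21, edgeR adjusted p = 0.283). Leaving out 1 library moved Adipoq to between -1.19 (without Tol 3) and -0.07 (without WT 1), Cfd to between -1.12 (without Tol 3) and 0.04 (without WT 1), and Cidea to between 0.41 (without Tol 3) and 1.39 (without WT 3). The median over the 7 members was -0.64, against 0.01 over all genes tested. The intervals of Adipoq, Plin1, Cidec, Retn, Cfd and Cidea each reach past 2-fold (toward higher in Tol for Cidea, toward lower for the others, and both ways for Cfd), so a change of that size was not detectable at this spread. Exact two-sided permutation of the genotypes on log2(CPM + 1) gave p from 0.143 (Ucp1) to 0.886 (Fabp4) over the 9 members, where 0.0286 is the smallest p that 4 against 4 libraries allow.

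Ucp1 and Lep did not pass the filter in the thymus fit, and were read with no filter on low counts, a reading chosen after seeing the data. Ucp1 then had an unadjusted p of 0.00549 and Lep of 0.0285, with adjusted p of 0.121 and 0.235 (edgeR). With all 22 libraries in one fit, the adjusted p was 0.152 for Ucp1 and 0.290 for Lep (edgeR). Tol 3 gave 76 of the Ucp1 counts in Tol thymi, where the other 3 libraries held at most 3 each, and WT 3 gave 49 of the 71 Lep counts in WT thymi. The exact permutation p was 0.143 for Ucp1 and 0.314 for Lep.

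**Figure D4:**
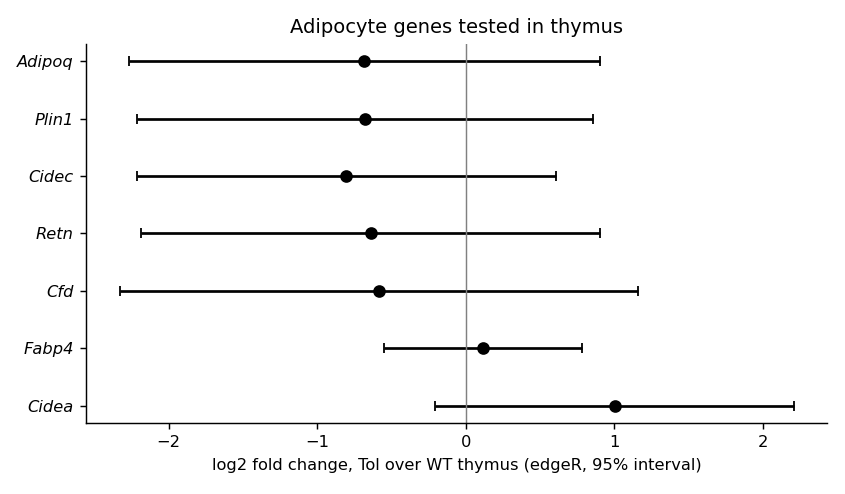
log2 fold change of Tol over WT thymus (x axis, edgeR) for the 7 members tested, with points for the estimate and bars for the 95% interval. Every interval includes 0, and that of Fabp4, from -0.55 to 0.78, is the narrowest.

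The wider fat programme was read from 7 gene lists, none of which had a gene called by edgeR at an adjusted p under 0.05. The median log2 fold change was -0.10 for the regulators, -0.05 for droplet and lipolysis genes, -0.17 for synthesis and uptake, -0.32 for other adipocyte genes, -0.19 for brown fat genes, -0.53 for white fat genes and -0.06 for adipokine receptors, against 0.01 over all genes tested. Among regulators, 10 of 10 genes were tested and 1 was under an unadjusted p of 0.05, against 24.4% of all genes tested. Srebf1, the transcription factor of lipid synthesis, had a log2 fold change of 0.39 (SE 0.11, adjusted p = 0.0868), Rxra, a nuclear receptor partner, of -0.10, and Cebpa, a factor of adipocyte and myeloid differentiation, of -0.02. Pparg, the nuclear receptor that drives adipocyte differentiation (named after its values were seen), was at 3.13, 2.75, 4.50 and 3.78 CPM in the Tol thymi, against 4.02, 3.30, 4.02 and 3.90 CPM in the WT thymi. Of the 10 regulators, 4 were lowest in Tol 1, beside 10.9% of all genes tested.

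Of 12 droplet and lipolysis genes 11 were tested, 2 had an unadjusted p under 0.05, beside 24.4% of all genes tested, and 6 of these 11 were lowest in Tol 1, beside 10.9% of all genes tested. Plin2, the droplet coat protein of most cells, was at 35.7 CPM in Tol 1 and between 44.6 and 54.9 CPM elsewhere, Pnpla2, the first lipase of triglyceride breakdown, had a log2 fold change of 0.13 and Bscl2, the seipin gene, of 0.28 (SE 0.07, edgeR adjusted p = 0.0841). The other gene under an unadjusted p of 0.05 was Cav1, for the caveolin of fat and endothelium, named after its values were seen. It was lowest in Tol 1 (12.6 CPM), with a log2 fold change of -0.68 (SE 0.15, edgeR adjusted p = 0.0710). Of 18 genes of fat synthesis and uptake, 0 were under an unadjusted p of 0.05 and 9 were lowest in Tol 1, beside the same shares of all genes. Scd1, the stearoyl-CoA desaturase, was at 36.6, 128, 247 and 296 CPM in the Tol thymi, against 474, 92.2, 535 and 142 CPM in the WT thymi, again lowest in Tol 1 and 14.6-fold lower there than in WT 3. Acly and Fasn, which supply and build fatty acids in most cells, had log2 fold changes of -0.12 and -0.13 and spanned 274 to 370 and 231 to 411 CPM.

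Of 10 other adipocyte genes 9 were tested, 1 had an unadjusted p under 0.05 and 8 of these 9 were lowest in Tol 1, again beside 24.4% and 10.9% of all genes tested. Sncg, Angptl4 and Mrap were the most abundant per length, with log2 fold changes of 0.10, 0.01 and -0.66. Of 18 brown fat genes 10 were tested with 0 under an unadjusted p of 0.05, and of 9 white fat genes 5 were tested with 1, Wt1 (log2 fold change -1.96, SE 0.52, adjusted p = 0.0862). Wt1 also marks mesothelium. Nnat and Agt, also of the white list, were at 0.06 and -0.79. Of 5 genes for receptors of adipokines, 1, the leptin receptor gene Lepr, was under an unadjusted p of 0.05 (log2 fold change -0.49, adjusted p = 0.149), and Cap1, Adipor2 and Adipor1 had log2 fold changes of -0.09, -0.06 and 0.06.

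Outside these 9 genes, the 15 genes most like Adipoq over the 8 thymus libraries had r from 0.921 to 0.982 among the genes with a mean of at least 1 CPM. In order they were Slc36a2, Cdo1, Lgals12, Adrb3, Ces1d, Car3, Scd1, Adig, Plin4, Praf2, Pcx, Thrsp, Mmd, Ghr and Gpd1, of which 8 stood on the lists already described. Car3, a carbonic anhydrase abundant in adipocytes and muscle, was at 0.321, 23.9, 74.1 and 39.8 CPM in the Tol thymi, against 98.0, 18.8, 48.3 and 40.5 CPM in the WT thymi, 305-fold from lowest to highest. Adrb3, the adrenergic receptor that starts lipolysis, spanned 9.39-fold and Plin4, a droplet protein of white adipocytes, 15.4-fold. Praf2 and Mmd had r of 0.936 and 0.924 while spanning only 1.25-fold and 1.37-fold. None of the 15 was called between genotypes by edgeR (lowest adjusted p 0.298), beside 0.0985% of all genes tested. None was under an unadjusted p of 0.05, beside 24.4% of all genes tested. DESeq2 also called none, beside 9.67% of the genes to which it gave an adjusted p. The 15 were picked for likeness to Adipoq, which was not called, so they add no separate result.

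The 10 genes most like Ucp1 had r from 0.859 to 0.929 and were Pgbd1, Scamp5, Igkv9-124, Myom1, Dhrs3, Mcrip2, Il11ra2, Plek2, Hspbap1 and Tmem8. None of the 10 was on a fat list. Without Tol 3 their r ranged from -0.67 (Tmem8) to 0.83 (Pgbd1), over libraries with at most 3 Ucp1 counts each.

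Markers of other tissues were read in the same libraries. The 4 mesothelial markers (Msln, Upk3b, Lrrn4 and Wt1) summed to 9.46, 9.41, 15.8 and 16.6 CPM in the Tol thymi, against 41.0, 23.6, 18.3 and 37.7 CPM in the WT thymi. The sums did not overlap between genotypes. Taken singly, the mesothelial markers Msln, Upk3b and Lrrn4 overlapped, and of the 4 only Wt1 did not. All 4 mesothelial markers had an unadjusted p under 0.05, as 24.4% of all genes tested in thymus did. None passed adjustment (lowest 0.0862, edgeR), which 0.0985% of all genes tested passed. Msln was the most abundant. The 7 fibroblast markers, led by Dcn, summed to between 222 and 327 CPM in Tol thymi and between 298 and 489 CPM in WT thymi, with 6 of 7 under an unadjusted p of 0.05 and lower in Tol, beside the same 24.4% of all genes, and none after adjustment. Their part in the fat levels was not tested.

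Over the 8 thymus libraries the sum was 293 to 361 CPM for medullary thymic epithelium, 60.1 to 87.7 for B cells, 2.30 to 5.37 for nerve and Schwann cells, 1.73 to 12.5 for parathyroid, 118 to 282 for blood and 9040 to 12560 for thymocytes. The brain markers, which check the dissection of the other organs, summed to 45.8 to 53.9 CPM (cerebrum list) and 2.17 to 3.30 CPM (cerebellum list) in thymus.

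In the brain most of the fat genes were near 0. Between WT thymus and WT cerebrum, 7 of the 9 members were tested and all 7 were called by edgeR, 6 higher and 1 lower in thymus, where 84.3% of the 17413 genes tested were called, 43.4% higher and 40.9% lower. Between WT thymus and WT cerebellum the count was the same, 6 higher and 1 lower, against 83.5% of genes called, 41.8% higher and 41.7% lower. With no filter on low counts, 8 members were called against cerebrum and 9 against cerebellum, and with all 22 libraries in one fit 8 against each. With shares this high among all genes, the count of members called says little about them. The 6 called higher passed the filter in neither brain organ's own fit of Tol against WT. They passed here through their thymus counts, so the filter favoured that direction.

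Cfd held 3084 counts over the 4 WT thymi, 0 over the 4 WT cerebra and 2 over the 4 WT cerebella. With the floor of 3 counts over the group it was at least 988-fold higher in thymus than in cerebrum. Adipoq held 805 counts in WT thymus against 1 in cerebrum and 3 in cerebellum, the latter a ratio of 333 (exact interval 114 to 1618). Cidec held 575 counts against 1 and 2. Fabp4 was 424-fold higher in thymus than in cerebrum (8 counts, interval 215 to 984) and 365-fold higher than in cerebellum (12 counts, interval 209 to 708).

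Plin1 and Retn were low in the brain. Plin1 held 16 counts over the WT cerebra and 16 over the WT cerebella, with log2 fold changes for thymus of 4.47 (SE 0.58) and 4.99 (SE 0.58). Retn held 18 and 17 counts, with log2 fold changes of 3.78 (SE 0.56) and 4.36 (SE 0.57), and all 4 were called by edgeR (highest adjusted p 3.62e-05). Both genes passed the filter through their thymus counts, which favoured this direction, and 84.3% and 83.5% of all genes tested were called. Lep held 2 counts in the WT cerebra and 1 in the WT cerebella and did not pass the filter in these fits. With no filter on low counts edgeR called Lep, with 71 counts in the WT thymi, higher there than in cerebrum (adjusted p = 0.00357) and than in cerebellum (adjusted p = 0.000964), and it was called against both with all 22 libraries in one fit.

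Cidea was the member that ran the other way. It was at 41, 16, 7 and 20 counts in the WT cerebra and at 117, 101, 138 and 118 counts in the WT cerebella, where its mean was 4.74 ± 0.38 CPM (SD, n = 4) against 0.424 ± 0.219 CPM in WT thymus. The log2 fold change of thymus was -1.77 against cerebrum (SE 0.45, edgeR adjusted p = 0.0026) and -3.77 against cerebellum (SE 0.44, adjusted p = 3.37e-06). Even Tol 3, the thymus with most Cidea at 1.69 CPM, lay below every cerebellum library.

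Ucp1 was also present at a few counts in the cerebellum, at 11, 5, 6 and 13 in WT 1 to 4, which was 35 counts over the group against 3 in WT thymus (ratio 9.41, exact interval 2.97 to 47.8, which covers counting error only). Over libraries, Ucp1 was called lower in WT thymus than in WT cerebellum with no filter on low counts (edgeR adjusted p = 0.00781) and was not called with all 22 libraries in one fit (adjusted p = 0.0502). In the WT cerebra it was at 0, 0, 0 and 3 counts. Of the 14 genes of the brown list tested, 2 were called higher and 10 lower in WT thymus than in cerebrum, and 1 higher and 13 lower than in cerebellum. Of the 6 of the white list, 1 was higher and 4 lower, and 1 higher and 5 lower. Of all genes tested, 40.9% were lower in thymus than in cerebrum and 41.7% than in cerebellum. The median log2 fold change of the brown list was -2.48 and -3.02, against 0.06 and -0.01 over all genes tested. Acot11, a thioesterase of brown fat, was at 60.5 CPM in WT cerebrum and 95.8 CPM in WT cerebellum (named after its values were seen). Of the 9 other adipocyte genes tested, 5 were higher and 2 lower in thymus than in cerebrum and 6 higher and 1 lower than in cerebellum, beside the 43.4% and 41.8% of all genes tested that were higher in thymus. Beside the same shares of all genes, higher and lower, the regulators counted 3 higher and 2 lower of 10, and 7 and 3, the droplet and lipolysis genes 6 and 4 of 11, and 4 and 4, the genes of synthesis and uptake 8 and 5 of 18, and 8 and 6, and the receptors 3 and 1 of 5, and 1 and 2.

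**Figure D5:**
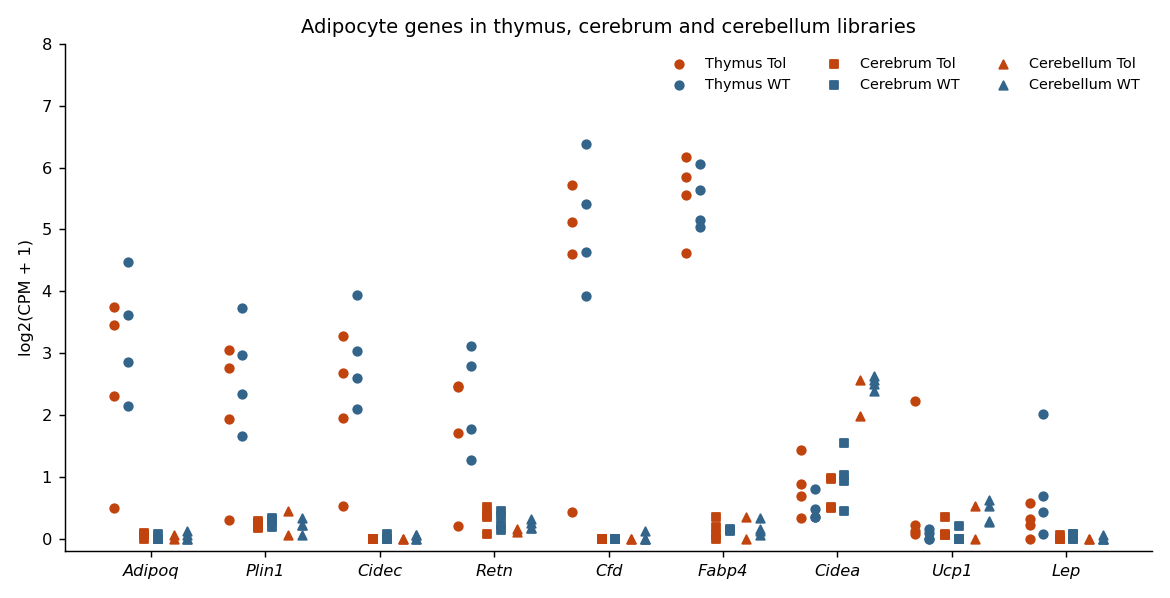
log2(CPM + 1) of the 9 genes in all 22 libraries, circles for thymus, squares for cerebrum and triangles for cerebellum, Tol in orange and WT in blue. In every brain library Adipoq, Plin1, Cidec, Retn, Cfd, Fabp4 and Lep lie below 1 on this scale, whereas Cidea is highest in cerebellum.

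Within the brain, Tol and WT were compared for the members that passed the filter. In cerebrum only Cidea did, with a log2 fold change of -0.60 (SE 0.49, edgeR adjusted p = 0.743). In cerebrum edgeR called 0% of the 15596 genes, with 1506 (9.66%) under an unadjusted p of 0.05 and 184 called by DESeq2 (1.26% of those it gave an adjusted p), which did not call Cidea. In cerebellum Cidea and Ucp1 were tested and 0 were called by edgeR, 0 were under an unadjusted p of 0.05 and DESeq2 did not call Cidea, the 1 to which it gave an adjusted p, against 0% of 16662 genes by edgeR, 527 (3.16%) at an unadjusted p under 0.05 and 10 by DESeq2 (0.0728% of those it gave an adjusted p).

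Cidea was at 124 and 74 counts in cerebellum Tol 1 and Tol 2, and Ucp1 at 11 and 0. Tol 2, the library low in Gabra6 and Pcp2 and highest in Barhl1, was lowest of the 6 for both Cidea and Ucp1. The same library was highest for Plin1 (9 counts, against 1 to 7) and Fabp4 (7 counts, against 0 to 6). With Tol 2 the log2 fold change was -0.27 for Cidea (SE 0.25, edgeR adjusted p = 0.957) and -0.68 for Ucp1 (SE 1.11, adjusted p = 0.959). Without it they were 0.05 and 0.29 (edgeR adjusted p 0.989 and 0.981), where the lone Tol library is assumed to vary like the WT ones. The effect of Tol in cerebrum against that in thymus was called by edgeR for 0 of the 7 members tested, against 0.107% of 17774 genes, with 0 of the 7 also under an unadjusted p of 0.05 (16.5% of all genes tested) and DESeq2 calling 0 of the 3 to which it gave an adjusted p, beside 495 of all genes (3.64% of those it gave one). Of the 7, only Cidea passed the filter in the cerebrum fit and held more than 10 counts in any cerebrum library. Cidea had the lowest unadjusted p, 0.0593 (log2 difference -1.61, SE 0.79, edgeR adjusted p = 0.327). The others passed the filter here only through their thymus counts, so the absence of calls says nothing about them in cerebrum.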

How the data were processed

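Poly(A) RNA of frozen tissue was prepared with a stranded kit and sequenced in single-end reads. Reads were quantified by the authors against the GRCm38 transcriptome plus the Tol transcript (Salmon 0.14.1, with edgeR 3.9 also named in the submitters' processing notes), and the deposited tables, 1 per organ, hold estimated counts per gene. These were rounded to whole numbers. Symbols came from GENCODE vM21 and matched 34530 of 34585 rows. Total counts were 16319117 to 34776973 in thymus and 14543698 to 27057348 in brain, where a floor of 3 counts is at most 0.207 CPM.

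Each organ was fitted with edgeR 4.0.16 (filterByExpr, TMM, quasi-likelihood, genotype as the only term, Benjamini-Hochberg over all genes), and WT organs and the interaction over the organs concerned. Fits were tested on simulated data. CPM used TMM sizes, length was the longest protein-coding transcript, and levels were tested as log2(CPM + 1) by exact permutation. DESeq2 1.42.0, other filters, scalings, a pseudocount of 0.1, a replicate block and leaving out each library were alternatives. Named were all members, the 3 genes highest per length of each fat list, any called, and the 15 and 10 genes most like Adipoq and Ucp1. Members and lists were chosen with earlier results of these data known. Cidea and Fabp4 had no promoter entry used here.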

Additional observations from a re-analysis of the deposited data

Results flagged for a closer look

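In groups of 4 libraries, 86 sets of values were examined (totals, CPM of members, the brown to white ratio and the summed CPM of lists in thymus). In 13 a library lay farther from the others than Dixon's 95% critical value. Not every member was examined in every group: Cfd in the WT cerebella, at 0, 2, 0 and 0 counts, was not among the 13. Chance flags about 1 in 20 groups, here 4.3. Among the fat genes, Ucp1 in thymus Tol 3 was at 3.68 CPM against 0.165 CPM in the next Tol library, and the summed CPM of Ucp1 and Cidea there was 5.37 against 0.895. Ucp1 in cerebrum Tol 4 (0.276 CPM, 4 counts) and in cerebrum WT 4 (0.157 CPM, 3 counts) stood out on few counts.

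Totals stood out for thymus Tol 1 (34776973, high), thymus WT 4 (29145285, high) and cerebrum Tol 4 (14543698, low). In thymus, list sums stood out for adipokine receptors in Tol 4 (652 CPM, low), cardiac muscle in Tol 3 (6.72 CPM, high), nerve and Schwann cells in Tol 4 (5.37 CPM, high), parathyroid in Tol 2 (12.5 CPM, high), the cerebrum markers in Tol 1 (52.6 CPM, high) and medullary thymic epithelium in WT 2 (361 CPM, high). Lep in thymus WT 3 was not beyond the critical value within its group of 4.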

How the results depend on the processing

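Under the alternatives run, edgeR or DESeq2 called none of the members between Tol and WT in any organ. The number of genes called in thymus by edgeR, 16, was 1266 with DESeq2, 130 with no filter on low counts, 85 with at least 10 counts required in every library, 29 with all 22 libraries in one fit and 0 to 2978 on leaving out each library in turn (2978 without Tol 1, 97 without Tol 3, 7 without WT 4 and 0 without each other library). The cause was not tested. The labels do not say what the replicate numbers mark. Same-number libraries did not deviate together in thymus (correlations -0.11 to 0.05) and were mixed in cerebrum (-0.30 to 0.34) and cerebellum (-0.18 to 0.62). The cerebellum values cannot show pairing, because its 2 Tol libraries, each taken as a deviation from their mean, mirror each other. A fit with a replicate block called 5 genes in thymus and no member. The Tol minus WT difference of the log2 brown to white ratio, 2.40, was 2.60 on summed counts, 0.702 with the brown and white lists added, and 1.76 to 2.94 on leaving out each library, and with the lists added brown genes exceeded white ones in all 8 thymi. Leaving out a library turned the sign of some differences that passed no test, among them the Cfd level difference, -1.117 with all thymus libraries. The Fabp4 log2 fold change ranged from -0.11 (without Tol 3; -0.02 without WT 2) to 0.37 and its level difference from -0.14 to 0.38 (-0.03 without Tol 4, -0.07 without WT 2, -0.03 without WT 4), and the Cfd fold change from -1.12 to 0.0375 (without WT 1) and its level difference from -1.70 to 0.0625 (without Tol 1). In thymus, Adipoq ranged from -1.19 to -0.07, Plin1 from -1.16 to -0.13, Cidec from -1.42 to -0.27, Retn from -0.98 to -0.18 and Cidea from 0.41 to 1.39. In cerebellum, Cidea ranged from -0.69 to 0.0462 and Ucp1 from -6.16 to 0.29, both turning without Tol 2. Fabp4 per kb was 10.6 with the union of exons. The number of members correlated with Adipoq, 5, was 4 to 6. At least 10 counts in every library left no member in the cerebrum, WT organ or interaction fits. The other 124 summary values and 608 single-gene values kept their direction and their side of the threshold, or moved by less than the spread. Few counts limit what can be read for Ucp1, Lep and Cidea in thymus and for most members in brain.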

Other observations

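The thymus libraries also differed in Pth and Upk3b. Pth, the parathyroid hormone gene, was at 2, 191, 2 and 26 counts in Tol 1 to 4 and at 1, 1, 1 and 8 counts in WT 1 to 4. Tol 2, which held 10.5 CPM of Pth, was low in Adipoq (3.96 CPM), and Tol 3, highest in Ucp1, held 2 Pth counts. Adipoq was lower still in Tol 1 (0.409 CPM) and WT 2 (3.41 CPM), with 2 and 1 Pth counts. Tol 4, with 26 Pth counts, held 9.99 CPM of Adipoq. A link between Pth and the fat genes was not tested. Gcm2, a transcription factor of the parathyroid, was at 2 to 6 counts in every thymus, and Casr, the calcium receptor, at 1.46 to 2.40 CPM. Upk3b, a gene of mesothelium, was at 1.55, 0.0550, 3.24 and 5.07 CPM in the Tol thymi, against 16.7, 8.92, 4.89 and 14.9 CPM in the WT thymi, and only Tol 4 and WT 3 overlapped (edgeR adjusted p = 0.0862, in a fit that called 0.0985% of genes).

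Pck1, the enzyme of glyceroneogenesis in fat, was at 1.20, 4.73, 16.7 and 6.76 CPM in the Tol thymi, against 14, 2.90, 3.77 and 4.07 CPM in the WT thymi. It was highest in Tol 3, the thymus with Ucp1, and lowest in Tol 1, and did not differ detectably between genotypes (log2 fold change 0.23, SE 0.66, edgeR adjusted p = 0.861).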
